A study of Mus musculus with 6 samples.

Results

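Immediate early transcription factors were followed by gene symbol in peritoneal macrophages of tumor-bearing mice. The set was chosen as 10 gene symbols, Atf3, Fos, Fosb, Jun, Junb, Egr1, Egr2, Egr3, Klf4 and Myc, and 7 of them had a row among the 754 genes measured. Fos, Junb and Egr1 were not analysed here.

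Immediate early genes are the first that a cell transcribes after a stimulus. Their promoters are held ready by factors that MAP kinases and other kinases switch on within minutes, and no new protein has to be made first. Jun and Fosb code for subunits of AP-1, a dimer that binds TGANTCA, whereas Atf3 codes for a basic leucine zipper factor of the ATF/CREB family that can bind the cAMP response element TGACGTCA and lower the transcription of cytokine genes. Egr2 and Egr3 code for zinc finger factors that bind GCGNGGGCG, Klf4 for a zinc finger factor of macrophage polarization, and Myc for a regulator of growth and metabolism. Macrophages induce these genes on contact with microbial ligands, growth factors or adhesion, and tissue dissociation and cell sorting induce them as well.

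The NanoString nCounter assay, which counts color-coded probes hybridized to RNA without amplification, was run on F4/80+ CD11b+ peritoneal macrophages from adult C57BL/6J mice that carried ID8 cells, a mouse ovarian cancer line, for 7 weeks before treatment. All mice received 2 intraperitoneal injections, on days 1 and 5. They were given PBS (3 samples, PBS replicates 1 to 3) or nanoparticles with 30 µg of mIRF5 mRNA (3 samples, IRF5-NP replicates 1 to 3), and the cells were recovered by lavage and sorted by FACS. The methods of the study state another dose and another time of tumor growth than the sample labels used here. The study's formulation pairs IRF5 mRNA with mRNA of its activating kinase IKKβ, whereas the labels name mIRF5 alone. No group received nanoparticles without IRF5 mRNA, so the particle and its cargo cannot be told apart. No source used here says whether the samples came from separate mice, so the p-values measure only the spread between these samples. In RNA from sorted populations, fewer cells of a type and less RNA per cell cannot be told apart.

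The gene values corresponded to totals of 683472 to 1830318 probe counts per sample, the lowest in IRF5-NP replicate 3. Background, the mean of the 8 negative controls plus 2 SD, lay between 25.6 and 37.8 normalized counts in 5 samples and at 79.4 in IRF5-NP replicate 3. The difference of PBS replicates 2 and 3 was not distinguishable from sampling noise (chi-square per degree of freedom of 1.07, against 158 to 179 between PBS replicate 1 and each of them), and both were counted as 1 sample, which left PBS n = 2 and IRF5-NP n = 3. All 9 measured macrophage markers, Adgre1 and Itgam of the sort among them, were above background in every sample. Irf5 was measured at 2573, 1991 and 1929 normalized counts in PBS replicates 1, 2 and 3 and 1960, 2358 and 2294 in IRF5-NP replicates 1, 2 and 3 (log2 fold change -0.03, limma adjusted p = 0.947). The delivered mRNA was codon optimized, and whether the Irf5 probe binds it was not tested.

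The promoters of the 3 members with the largest differences are shown because such genes are known to be induced through response elements close to the start. They are the 250 bases before the RefSeq transcription start (GRCm38.p6), 5′ to 3′ on the gene's strand, with capitals marking TGACG on either strand or TGACATCA.
Atf3, chr1:191183334-191183583, minus strand: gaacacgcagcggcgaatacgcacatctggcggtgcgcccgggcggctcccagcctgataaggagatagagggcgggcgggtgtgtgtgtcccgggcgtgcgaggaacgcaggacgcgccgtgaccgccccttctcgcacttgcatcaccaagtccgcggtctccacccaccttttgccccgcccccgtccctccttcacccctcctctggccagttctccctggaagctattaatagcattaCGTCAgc
Fosb, chr7:19310046-19310295, minus strand: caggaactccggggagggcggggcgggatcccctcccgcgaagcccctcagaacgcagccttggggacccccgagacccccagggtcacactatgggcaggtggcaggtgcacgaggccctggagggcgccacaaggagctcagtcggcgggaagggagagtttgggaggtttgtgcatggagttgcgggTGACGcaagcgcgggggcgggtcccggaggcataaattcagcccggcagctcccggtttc
Jun, chr4:95052223-95052472, minus strand: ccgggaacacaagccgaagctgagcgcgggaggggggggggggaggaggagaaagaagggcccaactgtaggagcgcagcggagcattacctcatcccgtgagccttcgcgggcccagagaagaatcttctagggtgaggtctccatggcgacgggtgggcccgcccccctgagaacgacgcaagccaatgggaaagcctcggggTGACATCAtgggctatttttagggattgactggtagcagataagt
The Atf3 promoter held CGTCA, the reverse complement of TGACG, 7 to 3 bases before the start. In the Fosb promoter, TGACG stood 60 to 56 bases before the start, followed by GCGGGGGCG at 50 to 42 bases. The Jun promoter held no TGACG but TGACATCA at 45 to 38 bases. Of 32851 mouse promoters of the same length, 17.8% held TGACG, 2.93% TGACATCA and 4.70% GCGNGGGCG, with both strands read. Klf4 held TGACG and 2 copies of GCGNGGGCG, and 4 of 5 Egr2 promoters held a CArG box, the serum response element, which 1.47% of all promoters held. In Egr2 promoters 3, 4 and 5 it was the same CCATATATGG at shifted distances from the start, with TGACG at the same spacing. The count of Egr2 promoters is thus not a count of separate elements. None of the 5 members with a promoter entry held TGACGTCA (1.55% of all promoters), which contains TGACG, or TGANTCA (6.75%). These matches are descriptions of letters, not of factor binding.

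With IRF5-NPs, Atf3 and Jun fell, and all 7 measured members had a log2 fold change below 0, against 51.7% of the 754 genes. Lower expression passed the threshold in 2 of 7 members, against 7.03% of all genes, and higher expression in none, against 2.52%, or 9.55% in either direction. At an unadjusted p under 0.05, limma called 5 of 7 members and 191 of 754 genes. The median log2 fold change was -0.91 over the members and -0.03 over all genes. Every IRF5-NP sample lay below every PBS sample for Atf3, Fosb, Jun, Myc and Egr2, 5 of 7 members, against 20.4% of all genes. Values below background were among them for Egr2 (IRF5-NP replicates 1 and 3) and Fosb (IRF5-NP replicate 3). For Egr2 the background of IRF5-NP replicate 3 was above every PBS value, so its separation is not secure. No member had every IRF5-NP sample above every PBS sample, against 17.0% of all genes.

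**Figure D1:**
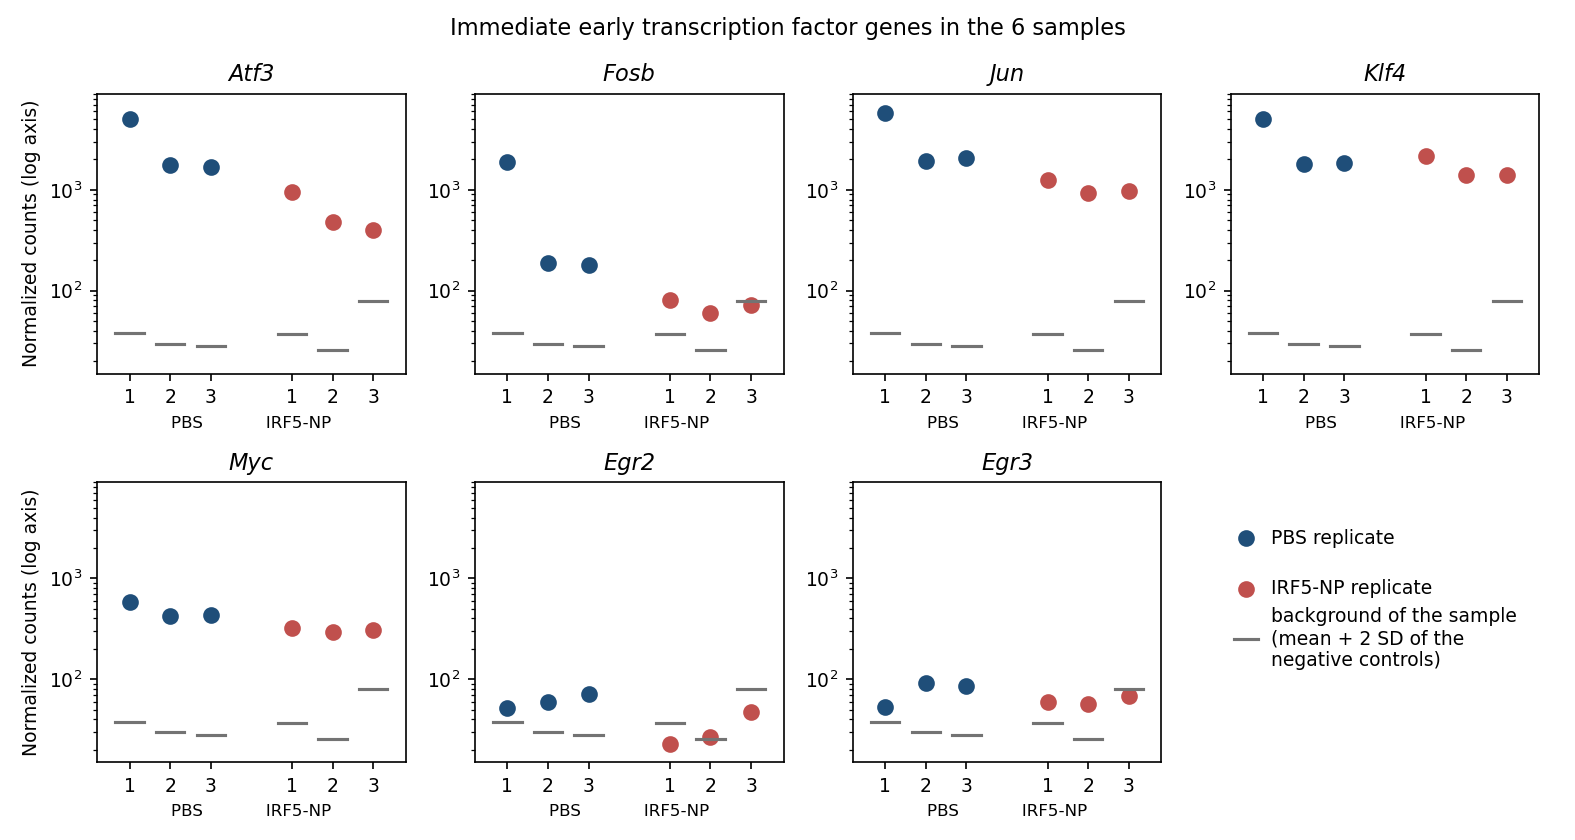
Normalized counts (log axis) of the 7 measured immediate early transcription factors in each PBS and IRF5-NP sample, with a point for each replicate and a grey line for the background of each sample. PBS replicate 1 stands above the other PBS samples for Atf3, Fosb, Jun and Klf4, and Egr2 and Egr3 lie close to background.

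Atf3 was measured at 5028, 1776 and 1691 normalized counts in PBS replicates 1, 2 and 3, and at 958, 484 and 398 in IRF5-NP replicates 1, 2 and 3. The groups did not overlap, with PBS replicate 1 highest and IRF5-NP replicates 2 and 3 lowest. The mean was 3381 ± 2330 (SD, n = 2) in the PBS group and 613 ± 302 (SD, n = 3) in the group given IRF5-NPs. The log2 fold change was -2.37 (SE 0.51, 95% interval from -3.55 to -1.19, limma adjusted p = 0.0293). The call was lost without PBS replicate 1 (log2 fold change -1.60, adjusted p = 0.140) and without IRF5-NP replicate 3 (-2.11, adjusted p = 0.139), with the direction kept in both. It was also lost after quantile normalization (adjusted p = 0.0721), with background subtracted (0.192), without the variance trend (0.0690) and under the Benjamini-Yekutieli adjustment (0.211). The methods' t-test, run on the 5 samples counted with Benjamini-Hochberg in place of the methods' Benjamini-Yekutieli adjustment, gave no call either (adjusted p = 0.299).

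Jun, the AP-1 subunit, was measured at 5716, 1948 and 2043 normalized counts with PBS and at 1258, 932 and 964 with IRF5-NPs, in the order of the replicates. Again the groups did not overlap and replicate 1 was the highest sample of each. The log2 fold change was -1.70 (SE 0.42, 95% interval from -2.66 to -0.73, limma adjusted p = 0.0429), between means of 3855 ± 2631 (SD, PBS, n = 2) and 1051 ± 180 (SD, IRF5-NP, n = 3). Jun lost its call without PBS replicate 1 (-0.94, adjusted p = 0.112), and without IRF5-NP replicate 1 (-1.83, adjusted p = 0.0813), 2 (-1.62, adjusted p = 0.0797) or 3 (-1.64, adjusted p = 0.180). It also lost the call under both other scalings, with adjusted p = 0.0664 after a common median and 0.0882 after quantile normalization, and after the filter on low values (0.0502), background subtraction (0.208), a fit without the variance trend (0.0928), the Benjamini-Yekutieli adjustment (0.309) and the methods' test (0.308).

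Fosb, the partner of Jun proteins in AP-1, had the largest fitted difference of the 7 members and the largest standard error. It stood at 1906, 188 and 178 normalized counts in PBS replicates 1, 2 and 3 and at 80.0, 59.5 and 72.8 in IRF5-NP replicates 1, 2 and 3. PBS replicate 1 was thus far above all other samples, and the value in IRF5-NP replicate 3 was below the background of that sample. The log2 fold change of -3.06 (SE 0.82, 95% interval from -4.96 to -1.15) did not pass (limma adjusted p = 0.0579). Without PBS replicate 3, which was not distinguishable from PBS replicate 2, it passed (adjusted p = 0.0495).

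Myc had the narrowest range among the members well above background. Its values were 583, 421 and 434 normalized counts with PBS and 324, 292 and 307 with IRF5-NPs, which did not overlap. The log2 fold change of -0.70 (SE 0.22, 95% interval from -1.21 to -0.19) missed the threshold (limma adjusted p = 0.0843). Klf4 gave 4978, 1797 and 1828 normalized counts with PBS and 2159, 1408 and 1403 with IRF5-NPs. Here the groups overlapped, since IRF5-NP replicate 1 lay above PBS replicates 2 and 3, and the log2 fold change of -0.89 had a 95% interval from -1.87 to 0.09 (limma adjusted p = 0.245).

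Egr2 and Egr3 were measured near background, Egr2 above it in 4 of 6 samples and Egr3 in 5 of 6. The samples below it were IRF5-NP replicates 1 and 3 for Egr2, with backgrounds of 37.2 and 79.4, and IRF5-NP replicate 3 for Egr3. Egr2 gave 51.9, 60.0 and 71.4 normalized counts with PBS and 22.9, 26.5 and 46.8 with IRF5-NPs, which rest on 18 to 58 probe counts per sample. Its groups did not overlap, and the log2 fold change was -0.91 (95% interval from -1.81 to -0.02, limma adjusted p = 0.187). Egr3 gave 52.9, 92.1 and 85.1 normalized counts with PBS and 60.0, 56.2 and 67.6 with IRF5-NPs. PBS replicate 1 was the lowest of all samples for Egr3, and the log2 fold change of -0.16 (95% interval from -0.89 to 0.57, limma adjusted p = 0.811) turned to 0.08 after a common median and to 0.06 after quantile normalization.

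**Figure D2:**
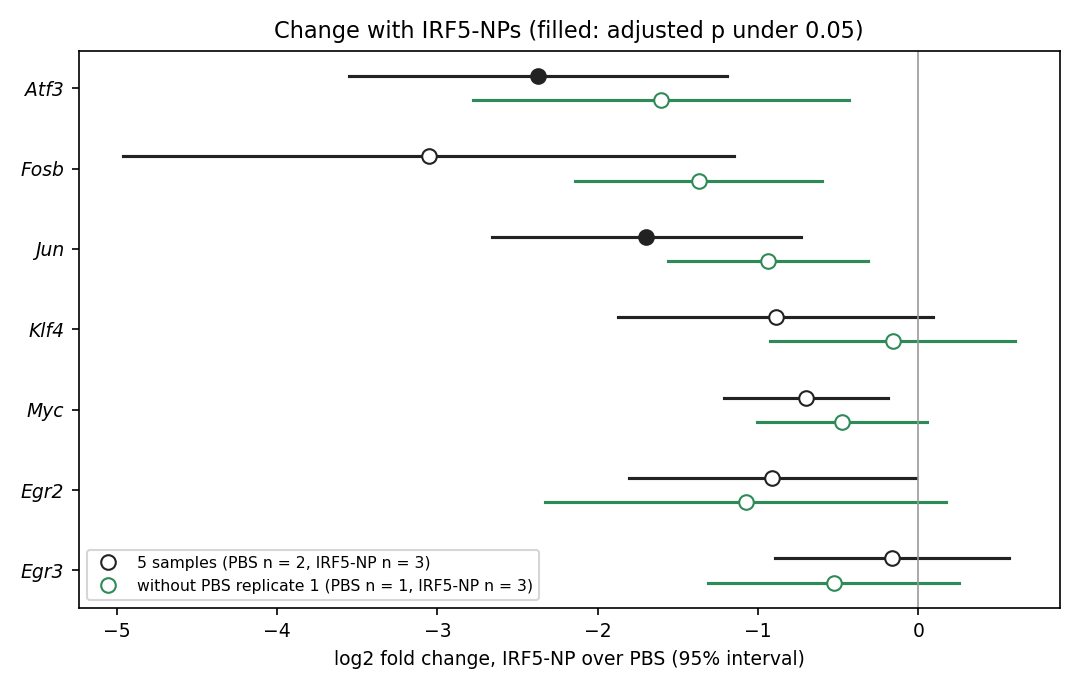
Log2 fold change (IRF5-NP over PBS) of the 7 members with 95% intervals from limma, in black for the 5 samples counted and in green without PBS replicate 1, filled where the adjusted p passed the threshold. All 7 estimates stay below 0 without PBS replicate 1, while those of Fosb, Atf3, Jun, Klf4 and Myc move toward 0 and those of Egr2 and Egr3 move away from it.

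PBS replicate 1 stood apart from the other PBS samples in 4 of the 7 members. Its value divided by the mean of PBS replicates 2 and 3 was 10.4 for Fosb, the highest ratio of all 754 genes, 2.90 for Atf3, 2.86 for Jun and 2.75 for Klf4. A ratio above 2 was found in these 4 of 7 members and in 6.23% of all genes. Myc had a ratio of 1.36, whereas Egr2 (0.796) and Egr3 (0.602) were lower in PBS replicate 1. Immediate early genes respond to cell isolation, and the part of isolation in these values was not tested.

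The direction of each member was therefore also read without PBS replicate 1. All 7 log2 fold changes remained below 0, at -1.60 for Atf3, -1.37 for Fosb, -0.94 for Jun, -0.16 for Klf4, -0.48 for Myc, -1.08 for Egr2 and -0.53 for Egr3, with a median of -0.94 against 0.05 for all genes. None passed the threshold in this fit with 1 PBS sample, whose spread is assumed to be that of the IRF5-NP samples (limma adjusted p from 0.0741 for Fosb to 0.894 for Klf4), against 4.24% of all genes called lower. When PBS replicates 2 and 3 were entered as separate samples, a fit chosen after the data were seen that treats near-identical samples as independent, 4 of 7 members passed, against 12.9% of all genes. These were Fosb (adjusted p = 0.00434), Jun (0.0107), Atf3 (0.0241) and Myc (0.0430). Every IRF5-NP sample lay below PBS replicates 2 and 3 for 6 of 7 members, Klf4 being the exception, against 26.3% of all genes. Among the 6, Fosb, Egr2 and Egr3 had at least 1 IRF5-NP value below background.

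The samples numbered 1 were the highest of their group in both groups for 5 of 7 members, Atf3, Fosb, Jun, Klf4 and Myc, against 13.1% of all genes. IRF5-NP replicate 1 exceeded the mean of IRF5-NP replicates 2 and 3 by 2.18 times for Atf3, 1.54 times for Klf4, 1.33 times for Jun, 1.21 times for Fosb and 1.08 times for Myc. Differences were therefore taken within numbers as well. Between the samples numbered 1, the log2 difference of IRF5-NP from PBS was -4.56 for Fosb, -2.39 for Atf3, -2.18 for Jun, -1.21 for Klf4 and -0.85 for Myc. Between the samples numbered 2 and 3 it was -1.46, -1.98, -1.07, -0.37 and -0.51 in the same order. For Egr2 both differences were below 0 (-1.15 and -0.88), and for Egr3 the sign turned (0.18 and -0.52). Fosb thus had the least similar differences, whereas those of Atf3, Myc and Egr2 lay closer together. No label names the number as a batch.

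**Figure D3:**
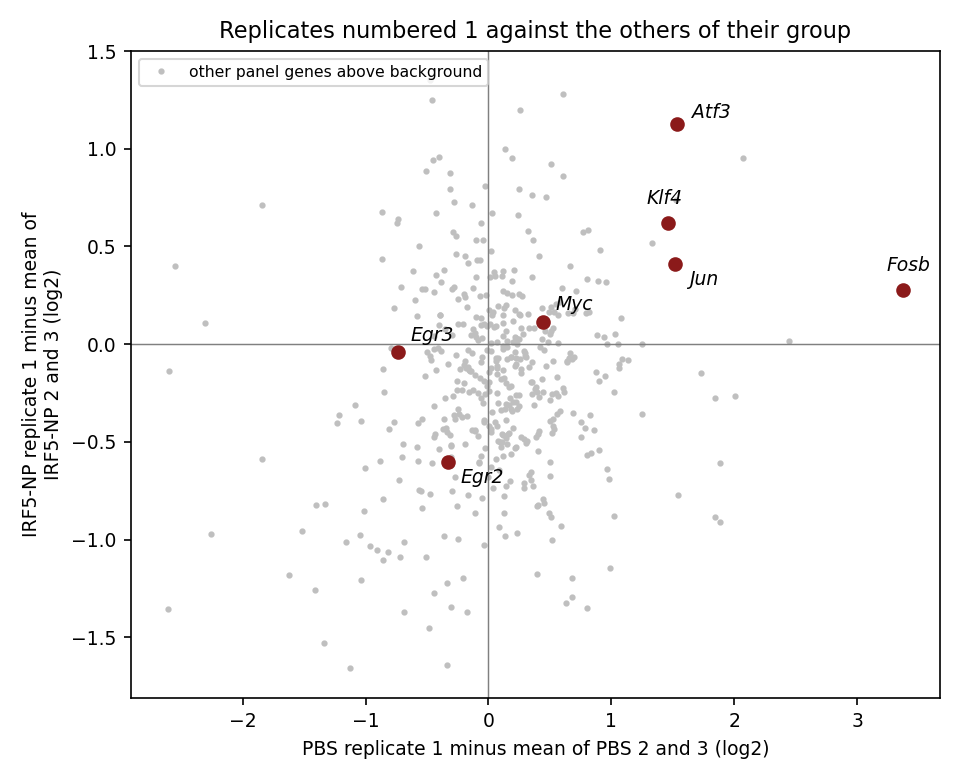
Log2 difference of PBS replicate 1 from PBS replicates 2 and 3 (horizontal axis) and of IRF5-NP replicate 1 from IRF5-NP replicates 2 and 3 (vertical axis), with the 7 members in red and the other genes above background in every sample in grey. Atf3, Fosb, Jun, Klf4 and Myc lie above 0 on both axes, and Egr2 and Egr3 below 0 on both.

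A list of genes that are also induced during cell isolation had 10 members in the table besides the members above. All 10 recur in the lists of related factors, MAP kinase genes or early response targets below, so these are not separate comparisons. Of the 10, 2 fell, against 7.03% of all genes. These were Nfkbia (log2 fold change -1.48, limma adjusted p = 0.0293), the inhibitor of NF-κB, and Socs3 (-1.03, limma adjusted p = 0.0380), a feedback inhibitor of cytokine signalling. Both are counted again among the targets. The median log2 fold change was -0.91 over the 10, as over the members. Every IRF5-NP sample lay below every PBS sample for 6 of the 10 (20.4% of all genes) and above for 1 (17.0%). None of the 10 passed without PBS replicate 1, where 4.24% of all genes were called lower. With PBS replicate 1 left out and PBS replicates 2 and 3 entered as separate samples, the fit chosen after the data were seen, 3 of the 10 passed as lower. In that fit 12.9% of all genes did. Dusp1, the phosphatase that switches off MAP kinases, was measured at 30836, 8483 and 8230 normalized counts with PBS and at 3261, 5821 and 6457 with IRF5-NPs (limma adjusted p = 0.0932). Unlike Atf3, Fosb, Jun, Klf4 and Myc, Dusp1 was lowest in IRF5-NP replicate 1. Nr4a1, an immediate early nuclear receptor, had a log2 fold change above 0, at 602, 739 and 700 normalized counts with PBS and 749, 1326 and 1333 with IRF5-NPs (limma adjusted p = 0.163). The others gave log2 fold changes of -1.53 for Gadd45b, -1.04 for Ier3, -0.79 for Nfkbiz, -0.01 for Cebpd, 0.11 for Cebpb and 0.18 for Btg2, none past the threshold.

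A list of related factors joined genes of the AP-1, ATF, CREB, C/EBP and KLF families with nuclear receptors, a hypoxia-inducible factor and the early induced Ier3. It did not take in every measured gene of these families and had 15 members in the table. None passed the limma threshold, against 9.55% of all genes, and 4 had an unadjusted p under 0.05, against 191 of 754 genes. Their log2 fold changes ran from -1.04 for Ier3 to 1.37 for Crem, a cAMP response modulator, with a median of -0.27. None of 11 MAP kinase pathway genes passed either (2 at an unadjusted p under 0.05, limma), with a median of -0.20. Against these shares of the panel, such small counts set neither list apart.

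Genes that early factors and NF-κB induce in macrophages had 39 members in the table. Lower expression passed the threshold in 15 of them (7.03% of all genes) and higher expression in none (2.52% of all genes). The log2 fold change was below 0 in 33 of the 39 and above 0 in 6, where it reached 2.25 without passing. Over the 39 members the median log2 fold change was -1.03. The fall was largest for the chemokines Ccl7 (-3.64) and Ccl2 (-3.52), which recruit monocytes. Ccl4 (-2.86), Ccl3 (-2.63), Cxcl2 (-2.18) and Tnf (-2.03) fell as well, as did the NF-κB inhibitor Tnfaip3 (-2.38). Further calls were Cd69 (-1.74), Nfkbia (-1.48), Cd83 (-1.48), Il1rn (-1.25), Plau (-1.24), Socs3 (-1.03) and Vegfa (-0.82). Without PBS replicate 1, 10 members were called lower, against 4.24% of all genes, of which 9 were among these 15, and the tenth was Cxcl10. Without IRF5-NP replicate 1 there were 9 calls, against 4.51% of all genes, and without IRF5-NP replicate 3 there were 4, against 2.52%.

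**Figure D4:**
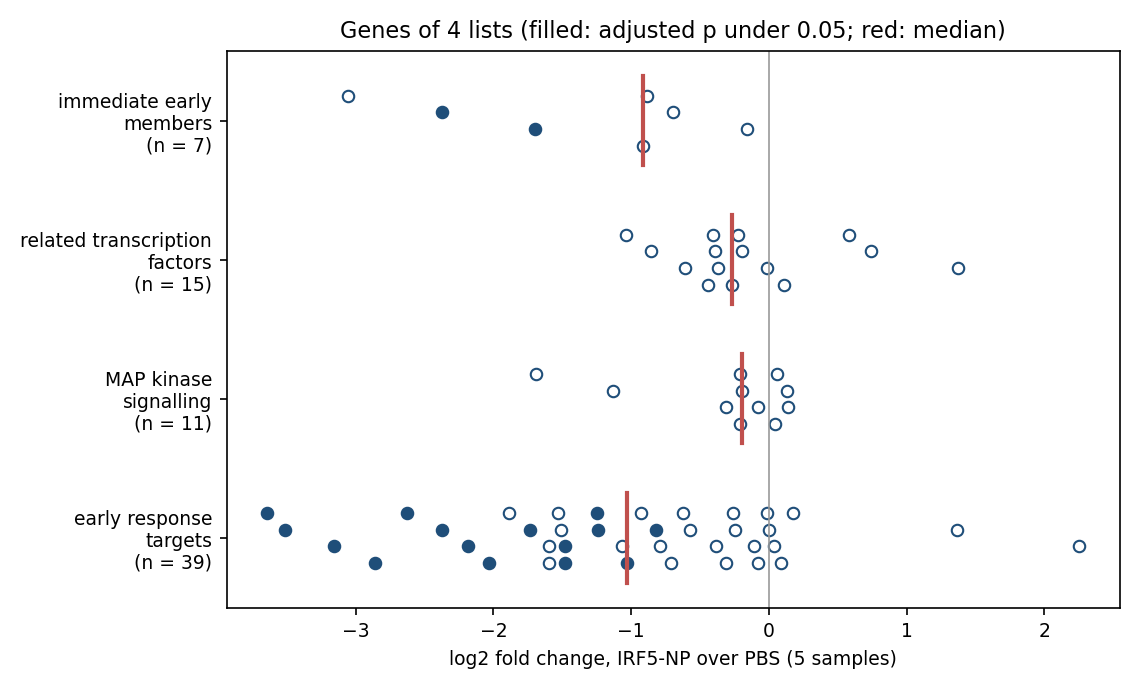
Log2 fold change (IRF5-NP over PBS) of each measured gene among the immediate early members (7), related transcription factors (15), MAP kinase genes (11) and early response targets (39), with filled points for genes past the limma threshold and a red line for each list's median. Filled points, 2 immediate early genes and 15 early response targets, all lie below 0.

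By profile over the 5 samples counted, each centred on its own mean, the genes of the panel most like Atf3 were Ccl3 (root mean square difference 0.271 on the log2 scale), Mrc1 (0.276) and Jun (0.435). Closest to Jun were S100a8 (0.191), Nfkbia (0.204) and Lpl (0.226), and closest to Klf4 were Nfatc2 (0.241), Ier3 (0.249) and Nfkbiz (0.274). Sqstm1 (0.0572), Mif (0.0798) and Cdkn1a (0.105) were closest to Myc. The comparison covered 481 other genes above background in every sample, which left out Fosb, Egr2 and Egr3.

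Markers of some other cell types and states moved with the groups, and their counts stand against 2.52% of all genes called higher and 7.03% called lower. Neutrophil genes (8 measured) summed to 2168 to 6658 normalized counts with PBS, the highest in PBS replicate 1, and to 1581 to 2528 with IRF5-NPs. S100a8 and S100a9 carried most of the sum in PBS replicate 1, at 3405 and 2598 normalized counts, and over the 8 genes the median log2 fold change was -0.07, with 4 below 0 and 4 above. Of their defining markers, Mpo and Camp were above background in none of the 6 samples and Ly6g in 1, and Csf3r rose. Elane (75.7, 30.0 and 41.3 normalized counts in PBS replicates 1, 2 and 3) was above background in 5 of 6 samples. Cxcr2 (56.0, 36.2 and 25.0) was above it in 3, and both were highest in PBS replicate 1. Of 6 genes of resident peritoneal macrophages, 3 rose (Timd4, Selp and Cxcl13), and their sum was 12189 to 23223 with PBS and 32563 to 66169 with IRF5-NPs. Among mast cell and eosinophil genes, 2 of 9 rose, Hdc and Cpa3, which was above background in 2 of 6 samples. Their sum over the list was 308 to 417 with PBS and 624 to 1019 with IRF5-NPs. Hdc alone, the largest part of it, gave 143 to 242 and 415 to 865. Epx, Prg2, Ccr3 and Tpsb2 were above background in no sample. Of the macrophage markers, Mertk alone of 9 passed and was lower, and of 6 monocyte genes Chil3 alone passed and was lower. None of 4 dendritic cell genes and 2 tumor, mesothelial or fibroblast genes passed, and the 1 lymphocyte gene measured, Ms4a1, rose, with values above background in 2 of 6 samples. The part of such cells in the immediate early values was not tested.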

How the data were processed

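The table used here holds signal values that the authors deposited, normalized probe counts on a linear scale. The methods, given for cultured macrophages, name NanoStringQCPro and nSolver and scaling to housekeeping genes. The table had 768 rows, of which 754 were genes, 8 negative controls and 6 positive controls. Groups were taken from the sample labels. Within each sample the values were multiples of 1 factor (0.952 to 2.60, tolerance 0.01 normalized counts), which gave the totals, the chi-square comparison of replicates and the background. The numbers of samples and of probe counts limit the precision, and intervals cover no other source of error.

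Values were compared on log2(value + 1) with limma 3.58.1 in R 4.3.3 (lmFit, then eBayes with a mean-variance trend). Tests were two-sided, p-values were adjusted by Benjamini-Hochberg across the 754 genes, and adjusted values under 0.05 passed. The log2 values of PBS replicates 2 and 3 were averaged to form 1 sample. Fold changes on this scale understate those of low genes. The test was checked on simulated data with independent noise for each gene and sample. These data held no shift shared by the genes of a sample, so the check does not cover such a shift. Promoters were matched by symbol to the RefSeq table (GRCm38.p6), in which 5 of the 7 measured members had an entry.

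The text names every measured immediate early gene, genes of the related lists past the threshold (1 of the early response target genes is not reported here), all genes of the isolation list, the delivered gene, the 3 genes nearest to each member above background, and genes of the marker lists that define a cell type. Crem and Ier3 are also named as the ends of a range. Cxcl10 was named after its values were seen. Members and lists were chosen with earlier results of these data known, and list counts are descriptions. Alternatives changed the samples counted, the scaling, the pseudocount, a filter on low values, background subtraction, the variance prior, sample weights, the test and the adjustment. Summaries used pandas 2.3.3, numpy 2.4.6 and scipy 1.17.1 under Python 3.11.15, and plots used matplotlib 3.10.9.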

Additional observations from a re-analysis of the deposited data

How the results depend on the processing

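Over all alternatives, the log2 fold change of Atf3 lay between -2.75 and -1.60, of Fosb between -3.75 and -1.37, of Jun between -1.83 and -0.94, of Klf4 between -1.10 and -0.16, of Myc between -0.78 and -0.46 and of Egr2 between -3.42 and -0.66. The -3.42 of Egr2 came from background subtraction, which acts most on values near background, and its next lowest value was -1.21. Egr3 ran from -0.54 to 0.08, above 0 with a common median (0.0760) and with quantile normalization (0.0636). Of all panel genes, 72 passed the threshold (19 higher and 53 lower). There were 42 higher and 36 lower after a common median, and 35 higher and 40 lower after quantile normalization, where the median log2 fold change of all genes was 0.21 and 0.11 in place of -0.03.

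Leaving out one replicate at a time gave 21 to 83 genes of the panel, 0 to 3 immediate early genes, 0 to 1 related transcription factors and 4 to 15 early response target genes. The panel count fell to 35 when PBS replicate 1 was dropped, to 41 for IRF5-NP replicate 2, and to 21 for IRF5-NP replicate 3. With 6 separate samples, 121 genes and 3 related factors passed. Sample weights gave 125 genes, 4 immediate early genes and 3 related factors. Subtracting background gave 25 genes, 0 immediate early genes and 4 target genes. Dropping the variance trend gave 41, 0 and 9, and the Benjamini-Yekutieli adjustment 21, 0 and 5. The methods' t-test was run on the 5 samples counted with the Benjamini-Hochberg adjustment, not the Benjamini-Yekutieli adjustment of the methods. It called 0 genes, 0 immediate early genes and 0 target genes after adjustment. At an unadjusted p under 0.05 it gave 125, 1 and 15, where limma gave 191, 5 and 22. A common median gave 1 immediate early gene and 1 related factor, quantile normalization 0 immediate early and 9 target genes, and the filter on low values 1 immediate early gene. No MAP kinase gene passed under any of these.

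Samples with the same number were compared for pairing, by correlating deviations from the group means across 482 genes (genes are no replicates). Numbers 1, 2 and 3 gave 0.158, 0.178 and 0.0953, and PBS replicate 3 correlated better with IRF5-NP replicate 2 (0.144). Deviations cancel within a group and PBS replicates 2 and 3 nearly agree, so numbers 1, 2 and 3 are not separate checks of pairing. The replicate block, fitted with 6 separate samples, gave 135 genes, 4 immediate early genes (Atf3, Fosb, Jun and Myc) and 3 related factors. A block of the samples numbered 1 against the others, chosen after seeing the data, gave 133 genes and 3 of 7 immediate early genes (11.5% of all genes called lower), with limma adjusted p = 0.000419 for Atf3, 0.00616 for Jun and 0.0153 for Fosb. Leaving out PBS replicate 1 with PBS replicates 2 and 3 separate, also chosen after seeing the data, gave 140 genes and 4 immediate early genes. The causes of these moves were not tested. The 2 planned tests on recovered counts were not run. Depth limits Egr2, Egr3 and, in IRF5-NP replicate 3, Fosb.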
